A study of Mus musculus with 4 samples.

Results

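Genes of de novo fatty acid synthesis were followed in the inguinal mammary gland of 10-day-old mice with and without Mt2-mmp, the membrane-anchored matrix metalloproteinase encoded by Mmp15. The set holds Fasn, Acaca, Acly, Slc25a1, Me1, Elovl6, Scd1, Scd2, Thrsp and Srebf1, and every probe set annotated to exactly 1 of these symbols was taken, whatever its level. This gave 15 of 45037 probe sets, which measured 8 of the 10 genes, and the 8 genes stood among 17097 genes tested. No probe set was named for Scd2 or Srebf1 in the annotation used, so both were not analysed here. Slc25a1 and Fasn had 1 probe set each, Elovl6 had 3 and the other 5 genes had 2.

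All mice were congenic on C57Bl/6J. Global knockouts, Mt2-mmp(-/-), were compared with wild-type littermates, Mt2-mmp(+/+), with 2 arrays per genotype, 4 in all, and age and background were common to both groups. The knockout is present in every tissue, so a difference in the gland need not arise in the gland itself. The labels call arrays of a genotype biological replicates but do not say how many mice an array stands for, nor their sex. The p-values therefore measure the spread between these arrays, with each gene's variance drawn toward those of the other genes. The genotype labels were not checked on the deleted gene, since no probe set was named Mmp15. Adipoq, an adipocyte hormone, lay between 13.14 and 13.26 on the log2 scale on all arrays and Epcam, an epithelial adhesion molecule, between 9.21 and 9.54, so both the fat pad and the epithelium of the labelled tissue were represented.

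Cells build fatty acids from citrate. The citrate carrier exports it from mitochondria, ATP citrate lyase cleaves it to acetyl-CoA, acetyl-CoA carboxylase makes malonyl-CoA, and fatty acid synthase joins these units to palmitate with NADPH, part of which comes from malic enzyme. Palmitate is then lengthened and desaturated, and transcription of these genes is driven by SREBP-1c (from Srebf1) with partners such as NF-Y, a factor that binds the CCAAT box. In the mammary gland the pathway is known from the adipocytes of the fat pad and, at lactation, from the secretory epithelium.

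No fatty acid synthesis gene passed the threshold of 0.05 for the adjusted p (limma, Benjamini-Hochberg over all genes), and the 8 genes lay on both sides of 0. Acetyl-CoA carboxylase (Acaca), fatty acid synthase (Fasn) and the citrate carrier (Slc25a1) had lower values on both knockout arrays than on either wild-type array. The stearoyl-CoA desaturase Scd1 and the lipogenic regulator Thrsp had higher values on both knockout arrays. For Acly, Me1 and Elovl6 the genotypes overlapped. In whole tissue, fewer cells of a type and less RNA per cell cannot be told apart. Of the 8 genes, 0 were called, where 0.00585% of all genes were, and in limma 5 came under 0.05 before adjustment, where 7.01% of all genes did. Genotypes did not overlap in 5 of 8 (62.5%) against 37.6% of all genes. These 5 were 2 higher and 3 lower in knockouts, and among all genes the shares were 18.2% higher and 19.4% lower. The genes were measured on the same 4 arrays and share regulators, so they do not count as 8 independent observations. The median log2 fold change of the 8 genes was -0.0324, against -0.00223 over all genes, and their median size without regard to sign was 0.287 against 0.0696.

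**Figure D1:**
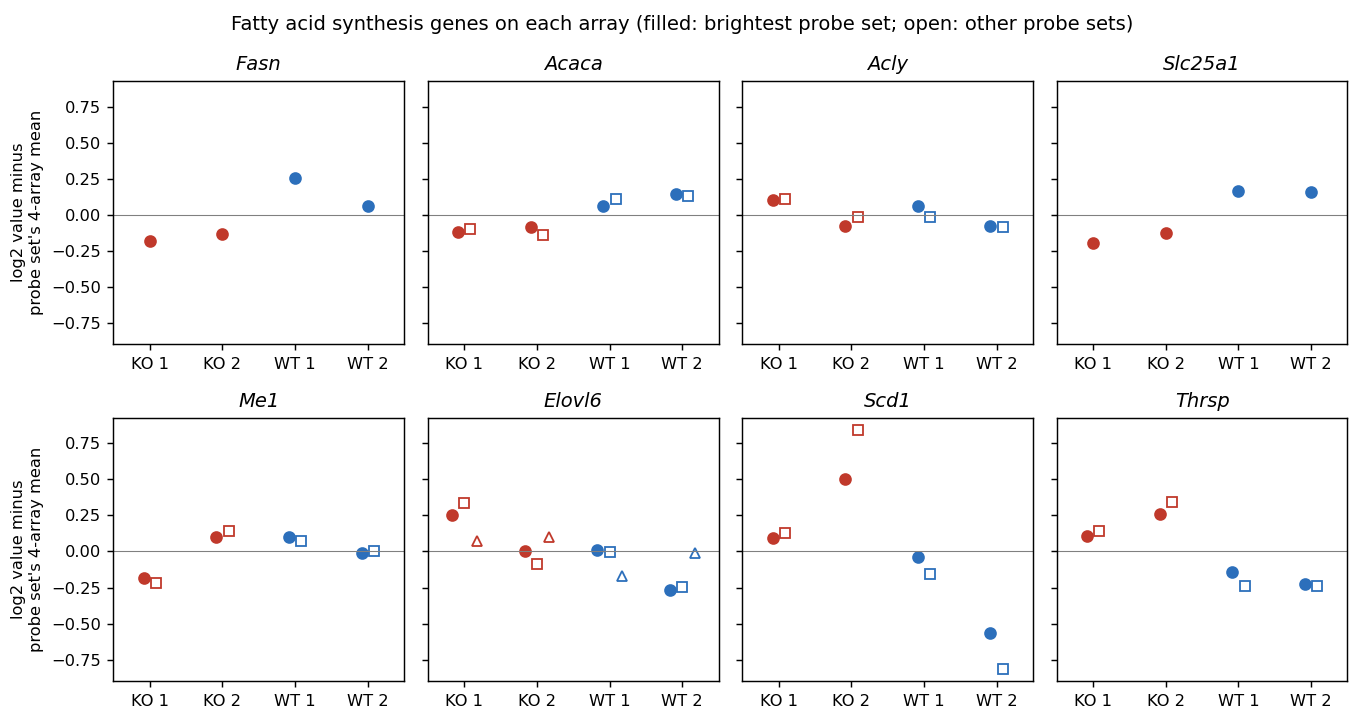
Log2 value of each probe set minus its own mean over the 4 arrays (vertical axis, log2 units), with knockout (KO, red) and wild-type (WT, blue) arrays on the horizontal axis and 1 panel per gene; filled symbols are the brightest probe set of a gene and open symbols its other probe sets. In Fasn, Acaca and Slc25a1 both knockouts lie below both wild types, in Scd1 and Thrsp both lie above, and in the filled symbols of Acly, Me1 and Elovl6 the genotypes overlap.

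Fatty acid synthase, Fasn, carries out all the steps that join malonyl-CoA units to palmitate. Its log2 values were 10.29 and 10.34 in knockouts 1 and 2 and 10.73 and 10.53 in wild types 1 and 2. Both knockouts lay below both wild types, with 0.19 between the nearest arrays, and the wild types were 0.21 apart. The means were 10.31 ± 0.0375 and 10.63 ± 0.146 (SD, n = 2 arrays each). The log2 fold change was -0.32 (SE 0.0921, 95% interval -0.56 to -0.08), a level 1.25-fold higher in wild type, with a limma adjusted p of 0.693.

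Acetyl-CoA carboxylase 1, Acaca, makes the malonyl-CoA that Fasn uses and is a main control point of the pathway. The brighter probe set gave 8.56 and 8.60 in knockouts 1 and 2 and 8.74 and 8.83 in wild types 1 and 2. The genotypes were 0.14 apart at the nearest arrays, more than the 0.09 between the wild types. This gave a log2 fold change of -0.21 (SE 0.0699, interval -0.39 to -0.03), with a limma adjusted p of 0.693. A second Acaca probe set was not above control level on any array, since 95% of values of the 23 nonspecific control probe sets lay under 4.54. It gave 3.90 and 3.86 in knockouts and 4.11 and 4.13 in wild types, and no difference is read from values at this level.

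Slc25a1, the mitochondrial citrate carrier, supplies the cytosol with the carbon for synthesis. Knockouts 1 and 2 read 9.12 and 9.19, and wild types 1 and 2 read 9.48 and 9.47. Arrays of a genotype were at most 0.07 apart and the genotypes were 0.28 apart, the widest gap among the brightest probe sets of the 8 genes. The log2 fold change was -0.32 (SE 0.0668, interval -0.50 to -0.15), a level 1.25-fold higher in wild type, and the limma adjusted p was again 0.693.

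Acly, ATP citrate lyase, takes the next step after citrate export, and it did not separate the genotypes in its bright probe set. That probe set read 10.37 and 10.19 in knockouts 1 and 2 and 10.33 and 10.19 in wild types 1 and 2. Replicate 1 was the higher array within each genotype, and the difference between replicates exceeded that between genotypes. On the log2 scale the fold change was 0.017 (SE 0.0952), and the interval of -0.23 to 0.26 allowed ratios from 0.853 to 1.20. The dimmer Acly probe set gave 7.48 and 7.36 in knockouts and 7.36 and 7.29 in wild types. Its lower knockout and upper wild type were level at 2 decimals, with a log2 fold change of 0.098 (limma adjusted p of 0.854 over all probe sets).

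Me1, cytosolic malic enzyme, provides NADPH. Its brighter probe set read 9.47 and 9.75 in knockouts 1 and 2 and 9.75 and 9.64 in wild types 1 and 2. Knockout 1 was the low array and the other 3 were within 0.12 of each other. The second probe set had the same order of arrays, with 8.81 and 9.17 in knockouts and 9.10 and 9.03 in wild types. The log2 fold changes were -0.081 (SE 0.115, interval -0.38 to 0.21) and -0.077, both within the spread of the knockouts. The bright probe set turned to 0.059 without knockout 1.

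Elovl6 lengthens palmitate to stearate, the substrate of Scd1. The brightest Elovl6 probe set gave 8.13 and 7.88 in knockouts 1 and 2 and 7.89 and 7.61 in wild types 1 and 2. Knockout 2 and wild type 1 were level within 0.01, so the genotypes overlapped, and the arrays of each genotype were at least 0.25 apart. The log2 fold change was 0.26 (SE 0.135, interval -0.09 to 0.60, limma adjusted p = 0.756). Leaving out knockout 1 gave 0.128 and leaving out wild type 2 gave 0.115, while leaving out knockout 2 or wild type 1 gave 0.382 and 0.394. A second probe set kept the same order of arrays at 7.14, 6.72, 6.80 and 6.56 for knockouts 1 and 2 and wild types 1 and 2, with a log2 fold change of 0.25. The third was dim, at 4.74 and 4.77 in knockouts and 4.50 and 4.66 in wild types, above control level on 3 of 4 arrays, and it separated the genotypes by 0.07.

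Scd1 introduces the double bond that turns stearate into oleate, and it had the largest fold change of the 8 genes and the widest spread between replicates. Its bright probe set read 12.60 and 13.01 in knockouts 1 and 2 and 12.47 and 11.94 in wild types 1 and 2. Both knockouts lay above both wild types, but the nearest arrays were only 0.12 apart while the wild types differed by 0.53. The means were 12.80 ± 0.290 and 12.20 ± 0.378 (SD, n = 2 arrays each). The log2 fold change was 0.60 (SE 0.223, interval 0.02 to 1.17), a 1.51-fold higher level in knockouts, and the limma adjusted p was 0.712. The second probe set read 6.98 and 7.70 in knockouts and 6.70 and 6.04 in wild types, the same order of arrays. Its log2 fold change was 0.97 (SE 0.303, limma adjusted p of 0.722 over all probe sets), a 1.96-fold difference. The bright probe set lay near the top of the scale, since the highest value of any probe set was 13.42. Whether that narrowed its difference was not tested, nor was the binding of RNA of the related Scd genes to either probe set. Leaving out knockout 2 or wild type 2 gave 0.392 and 0.330, and leaving out knockout 1 or wild type 1 gave 0.802 and 0.864.

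Thrsp, also called Spot 14, is a nuclear and cytosolic protein that promotes lipogenesis and was first known as a thyroid hormone-responsive gene. The brighter Thrsp probe set read 12.03 and 12.18 in knockouts 1 and 2 and 11.78 and 11.70 in wild types 1 and 2. The knockouts lay above the wild types by at least 0.24, and arrays of a genotype were at most 0.15 apart. The log2 fold change was 0.36 (SE 0.0835, interval 0.14 to 0.58), a 1.28-fold higher level in knockouts, with a limma adjusted p of 0.693. The second probe set had 11.07 and 11.27 in knockouts and 10.69 in each wild type, with 0.38 between the genotypes. Its log2 fold change was 0.48 (SE 0.0875), or 1.39-fold, with a limma adjusted p of 0.673 over all probe sets.

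**Figure D2:**
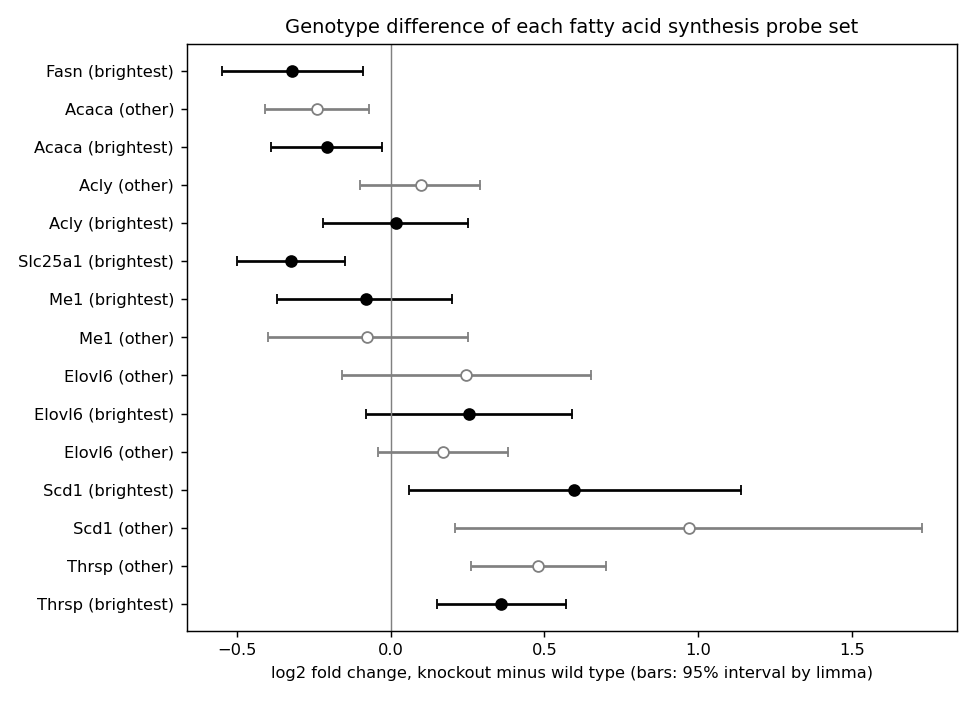
Log2 fold change of knockout minus wild type (horizontal axis) for each of the 15 probe sets, with limma's 95% interval as bars; black filled points are the brightest probe set of a gene and grey open points the others. Intervals of Fasn, Slc25a1 and both Acaca probe sets lie below 0, with the second Acaca probe set at background, those of both Scd1 and both Thrsp probe sets lie above 0, and those of Acly, Me1 and Elovl6 span 0.

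Probe sets of the same gene had the same sign in all 6 genes with several, where for Acaca the second probe set was at background and adds no measure of its level, and the order of all 4 arrays was the same across all probe sets only in Scd1 and Me1. Over the 15 probe sets, 0 were called against 0.00444% of all probe sets, and in limma 8 came under 0.05 before adjustment, against 6.65%. Genotypes did not overlap in 10 of 15 (66.7%) against 36.4% of all probe sets. Without the Acaca probe set at background these counts were 7 and 9 of 14. The 9 still hold the dimmer Acly probe set, whose genotypes were level at 2 decimals. They also hold the third Elovl6 probe set, with genotypes 0.07 apart and above control level on 3 of 4 arrays. Probe sets of 1 gene measure the same RNA, so the larger number adds no replicates. Knockout 2 held the highest value in 7 of the 15 probe sets, knockout 1 in 4 and each wild type in 2. Wild type 2 held the lowest value in 6, knockout 1 in 5, and knockout 2 and wild type 1 in 2 each.

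**Figure D3:**
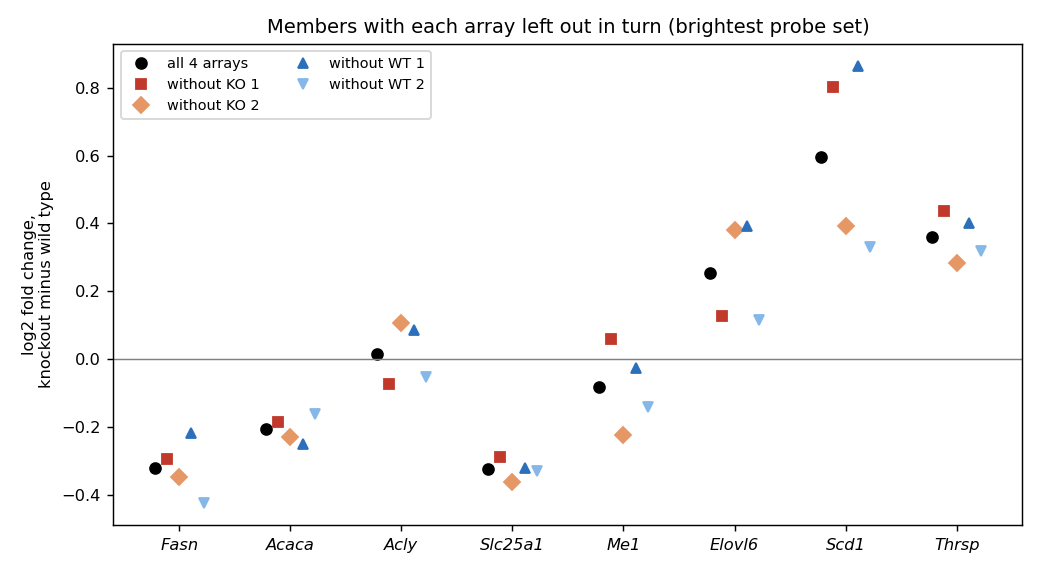
Log2 fold change of knockout minus wild type for the brightest probe set of each gene (vertical axis), with all 4 arrays (black circles) and with each array left out (coloured symbols). The values of Slc25a1 lie between -0.361 and -0.287 and those of Scd1 spread from 0.330 to 0.864; Acly and Me1 fall on both sides of 0.

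With any 1 array left out, the sign was the same for Fasn (-0.423 to -0.216), Acaca (-0.250 to -0.162), Slc25a1 (-0.361 to -0.287), Elovl6 (0.115 to 0.394), Scd1 (0.330 to 0.864) and Thrsp (0.283 to 0.437). The non-overlap of genotypes fixes this sign for 5 of these 6 genes, so it is not a sign of stability there. Acly turned to -0.073 without knockout 1 and to -0.053 without wild type 2. The Fasn value came to -0.216 without wild type 1, the array with its highest level.

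The promoter windows of Thrsp, Slc25a1 and Fasn are shown because these genes had the widest gaps between genotypes among the 8, a choice made after their values were seen. The sequences come from RefSeq (GRCm38.p6) and run from 250 bases before to 50 bases after a listed start of the gene. They are written 5′ to 3′ on the gene's strand, with the CCAAT box or its complement ATTGG in capitals. Fasn is at chr11:120824498-120824797, Slc25a1 at chr16:17928170-17928469 and Thrsp at chr7:97417501-97417800, all on the minus strand.
Fasn: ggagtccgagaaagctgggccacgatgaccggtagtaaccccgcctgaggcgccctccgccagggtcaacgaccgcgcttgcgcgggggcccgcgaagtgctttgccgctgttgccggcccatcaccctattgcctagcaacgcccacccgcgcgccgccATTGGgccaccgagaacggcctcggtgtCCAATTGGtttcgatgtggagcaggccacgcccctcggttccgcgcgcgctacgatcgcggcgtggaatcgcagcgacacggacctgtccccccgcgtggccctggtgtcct
Slc25a1: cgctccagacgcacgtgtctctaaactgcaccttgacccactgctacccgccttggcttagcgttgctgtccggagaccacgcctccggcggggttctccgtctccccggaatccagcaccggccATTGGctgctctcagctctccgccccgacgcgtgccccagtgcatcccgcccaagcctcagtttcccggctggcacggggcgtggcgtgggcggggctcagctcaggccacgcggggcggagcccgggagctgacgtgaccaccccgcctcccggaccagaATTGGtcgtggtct
Thrsp: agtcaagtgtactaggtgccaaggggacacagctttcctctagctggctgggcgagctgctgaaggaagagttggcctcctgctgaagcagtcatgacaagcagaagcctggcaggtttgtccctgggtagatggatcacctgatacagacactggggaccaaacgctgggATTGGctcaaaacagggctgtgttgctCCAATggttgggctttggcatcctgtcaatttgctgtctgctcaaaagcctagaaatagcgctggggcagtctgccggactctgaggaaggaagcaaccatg

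Of the measured genes 7 had an entry, with 8 windows in all. The windows of Fasn and Acaca and a window of Me1 lie inside the gene's span, so their listed starts are not its outermost end. Fasn held the box 3 times, with first bases at -90, -62 and -59 from the start, the last pair overlapping on opposite strands. Slc25a1 held it at -125 and 37, and Thrsp at -79 and -52. CCAAT was found on either strand in 5 of the 8 windows and in 37.4% of 32851 windows of the same length. The window of Slc25a1, at -239, was the only one of the 8 with the E-box CACGTG, which 7.15% of all windows held. The broader E-box CANNTG, which includes CACGTG, was in 5 of 8 against 72.3%, the GC box GGGCGG in 3 of 8 against 35.7%, and the sterol element core TCACNCCAC in 0 of 8 against 1.24%. Thus the windows of Fasn and Slc25a1, lower in knockouts, and of Thrsp, higher, each held CCAAT. So did the window of Acly and a window of Me1, where the genotypes overlapped. The windows of Acaca, lower in knockouts, and of Elovl6 held none, and Scd1 had no entry. These matches are letters in a window and not measured binding.

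Other genes of the pathway also lay on both sides of 0, and 0 passed the threshold in any related list in either direction. Of 19 genes that supply citrate, acetyl-CoA and NADPH, 11 were above and 8 below 0, with a median of 0.040. Aacs, which activates acetoacetate for lipid synthesis, had the largest difference of the list. Its knockout values were 7.39 and 7.48, below the wild-type values of 8.04 and 7.90, a log2 fold change of -0.53 (SE 0.081, limma adjusted p = 0.651). A second Aacs probe set had -0.013. Pcx, pyruvate carboxylase, which refills the citrate pool, had -0.35 without overlap of genotypes. On the other side were Acss1, a mitochondrial acetyl-CoA synthetase, at 0.36 and the insulin-responsive glucose transporter Slc2a4 at 0.27, with other probe sets down to 0.10 and 0.21.

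The list of 12 genes for malonyl-CoA turnover, chain assembly and acyl-CoA activation had 7 members above and 5 below 0, with a median of 0.031. Mecr and Oxsm, enzymes of the separate mitochondrial fatty acid synthesis route, had log2 fold changes of 0.31 and 0.15, and the acyl-CoA synthetase Acsl4 had -0.14. Mecr spanned 0.18 to 0.35 across its probe sets and Oxsm 0.022 to 0.15, and another probe set of Acsl4 had 0.00. Olah, the thioesterase that releases medium-chain fatty acids from Fasn in lactating gland, was at 3.69 to 4.05 on all arrays, under the control level, so no difference is given. In elongation and desaturation 7 of 13 genes were above 0 and the median was 0.0044. Hsd17b12 and Hacd2, which carry out the second and the third step of each elongation cycle, had -0.32 and -0.29, and the desaturases Fads1 and Fads2 had -0.36 and 0.28. Hsd17b12 read 11.14 and 11.15 in knockouts and 11.39 and 11.54 in wild types, without overlap. Other probe sets had -0.40 for Hsd17b12 and went to 0.043 for Hacd2, -0.029 for Fads1 and -0.059 for Fads2.

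Regulators of lipogenic transcription, 28 genes, had 9 members above and 19 below 0, with a median of -0.039. The E-box factor Usf2, known as an activator of the Fasn promoter, had -0.30, with 8.28 and 8.31 in knockouts and 8.50 and 8.68 in wild types. The insulin receptor Insr had -0.28, the nuclear receptor partner Rxra -0.18, and the coactivator Ppargc1b 0.39. Another probe set gave 0.002 for Usf2, 0.043 for Rxra and -0.052 for Insr. Among 13 sterol-regulated genes 9 were above 0 and the median was 0.018. Hmgcs1, an early enzyme of cholesterol synthesis, had 1.03, while the later enzymes Fdft1 and Lss had -0.51 and -0.40 and Sc5d had 0.12 (0.03 to 0.21 over its probe sets). The array order of Hmgcs1, from 7.92 in knockout 2 through 7.03 and 6.64 to 6.25 in wild type 2, was that of Scd1. Thrsp, Slc2a4 and Fads2 had that order too in their brightest probe sets, and 4 arrays are too few to read likeness from an order. In these 5 lists the limma adjusted p was at least 0.651. By unadjusted p under 0.05, limma gave 3 supply genes, 1 assembly gene, 2 elongation genes, 1 regulator and 3 sterol genes, where all genes give 7.01%, so that 1 of 12 and 1 of 28 are near or under that share.

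**Figure D4:**
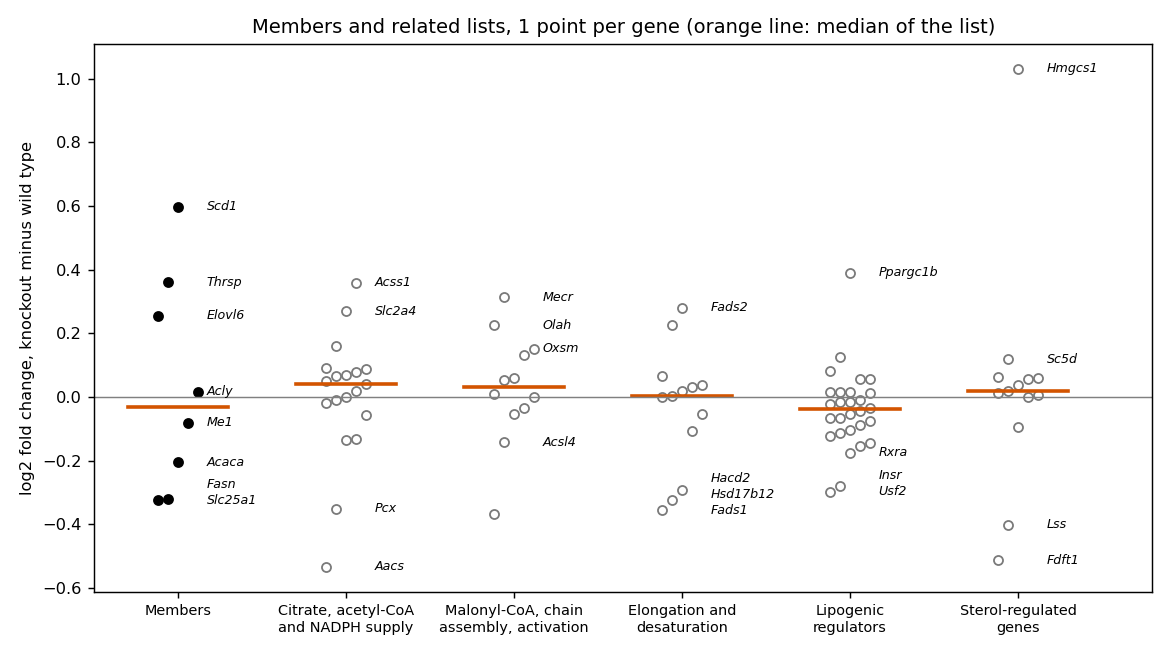
Log2 fold change of knockout minus wild type (vertical axis) for the 8 measured fatty acid synthesis genes (filled) and 5 related gene lists (open), 1 point per gene at its brightest probe set, with the list's median as an orange line; the named genes are labelled, labels shifted where they would touch. Medians lie between -0.039 and 0.040 in all 6 columns, while single genes reach from -0.53 for Aacs to 1.03 for Hmgcs1.

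Markers of the cell types in the tissue were read on the same arrays; 0 of them passed the threshold in any list, and their part in the values above was not tested. All list levels here are log2 of the summed linear values, which the brightest markers dominate. White adipocyte markers were 4 of 6 above 0, at 14.71 and 14.84 in knockouts 1 and 2 and 14.83 and 14.81 in wild types 1 and 2, so this sum overlapped between genotypes, while the mean log2 value of the same markers did not, at 10.44 and 10.63 against 10.29 and 10.07. The separation of that mean came from Lep, leptin, at 8.15 and 8.16 against 6.72 and 5.20, a log2 fold change of 2.19. Within the list Retn, resistin, had -0.25, and the remaining markers lay between -0.035 and 0.198 in their brightest probe sets. Across its 3 probe sets Fabp4 ran from 0.016 to 0.304. Brown and beige adipocyte markers were 9 of 9 above 0, at 13.95 and 13.53 against 13.05 and 13.01, with Ucp1 at 1.64 and Cox7a1 at 0.82. Luminal markers were 10 of 11 below 0, at 11.66 and 11.59 against 11.94 and 11.82, with Foxa1 at -0.39 and Epcam at -0.31 (-0.049 in another probe set). Basal markers were 6 of 6 below 0, at 12.42 in each knockout against 12.54 and 12.47, with Oxtr at -0.36 and Krt14 at -0.27 (other probe sets -0.076 and -0.14). Counted by gene, the genotypes did not overlap in 7 of 9 brown and beige, 7 of 11 luminal, 3 of 6 basal and 2 of 6 white adipocyte markers, against 37.6% of all genes, and 0 markers of these lists passed the threshold.

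Among the other 6 marker lists, the sums did not overlap between genotypes for macrophage markers, lower in knockouts, and fibroblast markers, higher in knockouts, and overlapped for the remaining 4. By the mean log2 value instead of the sum, fibroblast markers overlapped (10.27 and 10.40 against 10.36 and 10.25) and endothelial markers did not (9.05 and 9.27 against 9.02 and 8.94). Sebaceous gland markers, of interest because sebocytes make much lipid, were 3 of 6 above 0, at 10.67 and 10.99 against 10.77 and 10.83, and 2 or 3 of the 6 were at or below control level on each array. Krt79 had 0.30, and Mc5r, above control level on 3 of 4 arrays, had -0.17. Epidermis and hair follicle markers stood at 12.33 in knockout 1 and 12.10 in wild type 2 but at 8.55 in knockout 2 and 8.51 in wild type 1. Hair shaft and root sheath genes, named after their values were seen, carried this: Krt25 read 10.44 and 10.47 on the former pair and 3.70 and 3.99 on the latter, and Tchh 10.74 and 10.37 against 3.49 and 4.03. Krt1 and Lor, of the epidermis, were under control level on all arrays. Among the brightest probe sets of the 8 genes, Me1 alone had knockout 1 and wild type 2 as its lowest arrays, and none had them as its highest. Skeletal muscle markers were 8 of 9 above 0, at 9.99 and 10.55 against 10.11 and 9.77. Knockout 2 was the highest array for this list and knockout 1 did not exceed wild type 1. Myh1, Myog and Tnnt3 were under control level on all arrays, and 3 to 5 of the 9 markers were at or below it on each array. Macrophage markers were 8 of 8 below 0, at 12.19 and 12.29 against 12.41 and 12.31, with Mpeg1 at -0.39 and Ctss at -0.27. Endothelial markers were 5 of 6 above 0, at 11.92 and 12.14 against 11.96 and 11.86, with Tie1 at 0.50 and Tek at 0.18. Fibroblast markers were 4 of 6 above 0, at 14.30 and 14.34 against 14.28 and 14.15, with Pdgfra at -0.18 and Col1a1 at 0.18.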

How the data were processed

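RNA of whole inguinal gland, 200 ng per array, was labelled for Affymetrix 3′ IVT arrays, per the labels' protocols. The authors deposited a log2 value for each probe set, computed by RMA in affy per the submitters' processing notes, which name no version or options. RMA gives the arrays one distribution of probe intensities before it summarizes them to probe sets, and it compresses differences of dim probe sets. Array medians were 5.20 to 5.21.

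Probe sets were named by the platform annotation: 28898 of 45141 had 1 symbol and 551 had several, which were not used. A gene was represented by the probe set of highest mean over the 4 arrays. Knockout was compared with wild type for 17097 genes, and separately for 45037 probe sets without the 104 array controls, by two-sided limma tests (version 3.58.1, lmFit then eBayes, under R 4.3.3) with Benjamini-Hochberg adjustment over all genes or all probe sets. The eBayes step draws each variance toward a prior estimated from all rows, with 2.96 prior degrees of freedom for genes. SEs, intervals and p-values therefore do not follow from a gene's SDs alone. The fit was tested on simulated data. The number of arrays limits the precision (median SE 0.080), and 0.333 is the smallest p that exact permutation of these arrays allows.

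The fatty acid synthesis genes and all lists were chosen with earlier results of these data known. The text names all members, the 4 genes of smallest p in each related list and the 2 of smallest p in each marker list. Same-numbered arrays do not come from stated pairs, so no block was used. The alternatives were other scalings, a filter on dim genes, the mean of probe sets, other variance models, a replicate block and each array left out.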

Additional observations from a re-analysis of the deposited data

How the results depend on the processing

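No fatty acid synthesis gene was called by limma under any alternative run, with 3 to 5 of the 8 genes at an unadjusted p under 0.05, and 0 of their 15 probe sets (13 where only brighter ones were kept) were called, with 5 to 8 at that p. The lowest adjusted p of any of the 8 genes under an alternative was 0.429, for Slc25a1. Over 11 alternatives for each of 8 genes, 85 of 88 values kept their direction, a count largely fixed in advance. The filter on dim genes, the other variance models and the replicate block leave each fold change as it was. For the 5 genes without overlap, leaving out 1 array cannot turn the sign. The count is therefore no measure of stability. The 3 values that turned came from leaving out 1 array: Acly ranged from -0.073 to 0.106 and Me1 from -0.222 to 0.059. The cause was not tested. The median of the 8 genes ran from -0.0959 to 0.0311 with 1 array left out and from -0.0382 to -0.0110 otherwise. The per-array median of these genes varied by 0.055 (SD between arrays of a genotype). Leaving out wild type 1 or 2 moved the median fold change by more than that, to 0.0311 and -0.0959. This median is set by the middle genes, Me1 and Acly. They had -0.024 and 0.086 without wild type 1, and -0.139 and -0.053 without wild type 2. Why these genes moved was not tested. Genes on both sides of 0 keep such a median near 0.

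Over all genes limma called 1 (1198 at an unadjusted p under 0.05). It called 0 with probe sets averaged per gene (1185), 0 with the replicate block (1185), 2 with robust variances and 0 or 1 with 1 array left out. Over all probe sets it called 2 (2994 at an unadjusted p under 0.05), 5 with quantile normalization, median centring, brighter probe sets alone, robust variances or an intensity trend, 0 with the replicate block (3131) and 0 to 5 with 1 array left out. Deviations of same-numbered arrays correlated at -0.48 across genes, and a crossed pairing added after the data were seen called 0 genes (1064) and 0 probe sets (2558). With 1 array left out, the lone array of a genotype is taken to vary like the other genotype. Signal over background limits the second Acaca and the third Elovl6 probe set, which lay at or near the level of the nonspecific controls.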
